A study of Mus musculus with 14 samples.

Results

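The CREB subfamily of transcription factors and its coactivators are described here in 14 RNA-seq libraries of αTN4-1, a mouse lens epithelial line from transgenic mice whose lens was transformed by a viral T antigen. The 8 genes were chosen by name: Creb1, Crem and Atf1, the 3 genes of the subfamily, Crtc1, Crtc2 and Crtc3, the CREB-regulated transcription coactivators, and Crebbp and Ep300, which encode the acetyltransferases CBP and p300. They are 8 of 40853 genes in the deposited tables and all pass the filter of 1 TPM (a share of transcripts adjusted for gene length, mean over libraries) that 12927 genes passed, and none was listed at 0 in any library.

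The cells were 7 stable lines, all grown under neomycin: Vector, which carries no CREB construct by its label, 3 lines labelled for CREB with an unaltered serine (WT-CREB, R314A-CREB and the DNA-binding mutant KCREB), and their 3 counterparts with S133A added (S133A-CREB, S133A/R314A-CREB and the K line S133A-KCREB). Each line gave 1 control library and 1 library of cells treated for 24 h with TGFβ at 20 ng/mL in serum-free medium. Whether control cells also lacked serum is not in the labels, and the effects of the cytokine and of the loss of serum cannot be told apart. No line and treatment was repeated, the labels do not say whether a line is 1 clone, and the 7 lines served as the replicates of TGFβ.

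CREB, CREM and ATF1 bind cAMP response elements in DNA as dimers, through a basic leucine zipper that they share and that lets them pair with each other. Protein kinase A and other kinases phosphorylate a serine in the kinase-inducible domain, which then binds CBP or p300, whereas the CRTC proteins bind the zipper and enter the nucleus when they are dephosphorylated. The Crem gene also has a promoter inside it that gives short repressor forms called ICER, which gene-level values do not separate from the longer forms. In the labels, S133A replaces the phosphorylated serine of CREB, and R314A replaces a zipper arginine known to be needed for CRTC binding. KCREB is known as a mutant that does not bind DNA and acts as a dominant negative by dimerizing with other members of the subfamily.

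The sites altered in the constructs are shown with the matching sites of Atf1, because both genes carry them. The sequences come from reference transcripts of GENCODE M21 on GRCm38, plus strand, with the altered codon in capitals. The serine codons lie at chr1:64566310-64566312 in exon 5 of Creb1 and at chr15:100245338-100245340 in exon 3 of Atf1, and the arginine codons at chr1:64597292-64597294 in exon 9 of Creb1 and at chr15:100259873-100259875 in exon 7 of Atf1.
Creb1 serine site: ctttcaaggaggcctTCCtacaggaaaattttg
Atf1 serine site: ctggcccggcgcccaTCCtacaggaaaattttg
Creb1 arginine site: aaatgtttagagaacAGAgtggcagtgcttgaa
Atf1 arginine site: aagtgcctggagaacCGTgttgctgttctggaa
Around the serine, 26 of 33 bases were identical between Creb1 and Atf1, and the serine codon itself was the same. Around the arginine, 23 of 33 bases were identical, and different codons encoded the same residue. Translated from these transcripts, CREB and CREM shared 66.6% of 323 aligned residues, CREB and ATF1 shared 65.8% of 263, and CREM and ATF1 shared 54.2% of 260. In the last 60 residues of CREB, which hold the leucine zipper, 46 were identical in CREM and 52 in ATF1. The CRTC proteins shared 41.1% to 46.3% of aligned residues pairwise, and CBP and p300 shared 65.8% of 2297.

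Atf1 was the most abundant of the 8 genes on the length-adjusted TPM scale, with a mean of 81.5 ± 12.5 TPM (SD over the 14 libraries). Crtc2 (52.9 ± 14.5 TPM) and Ep300 (52.2 ± 8.73 TPM) followed, then Crebbp (27.6 ± 5.69 TPM), Crtc3 (22.4 ± 2.98 TPM), Crtc1 (19.6 ± 3.66 TPM), Creb1 (16.7 ± 11.7 TPM) and Crem (11.1 ± 4.91 TPM). Of neighbours in this order, only Ep300 and Crebbp had ranges that did not meet, with a lowest Ep300 of 38.0 TPM and a highest Crebbp of 37.6 TPM. Atf1 was above Crtc2 in 14 of 14 libraries and Crebbp above Crtc3 in 14 of 14, although their ranges over libraries overlapped. The pairs Crtc2 and Ep300, Crtc3 and Crtc1, Crtc1 and Creb1, and Creb1 and Crem changed order between libraries, with the first of each pair higher in 10, 9, 8 and 11 of 14.

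The order depended on how a level was expressed. By per-base coverage divided by the library's coverage per FPKM, Ep300 was highest (16.3 ± 2.67), ahead of Crtc2 (14.2 ± 3.91) and Atf1 (8.78 ± 1.32), and Crtc1 was lowest (0.78 ± 0.14). The ratio of coverage to FPKM, relative to the most frequent ratio in the library, had a median of 0.989 for Ep300 but 0.342 for Atf1, 0.268 for Crem and 0.127 for Crtc1. TPM placed Atf1 at rank 1 and Crtc1 at rank 6 of the 8, coverage at ranks 3 and 8, and Crem was at rank 8 by TPM and 7 by coverage. The comparison of levels between genes is less certain than the comparison of 1 gene between libraries.

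**Figure D1:**
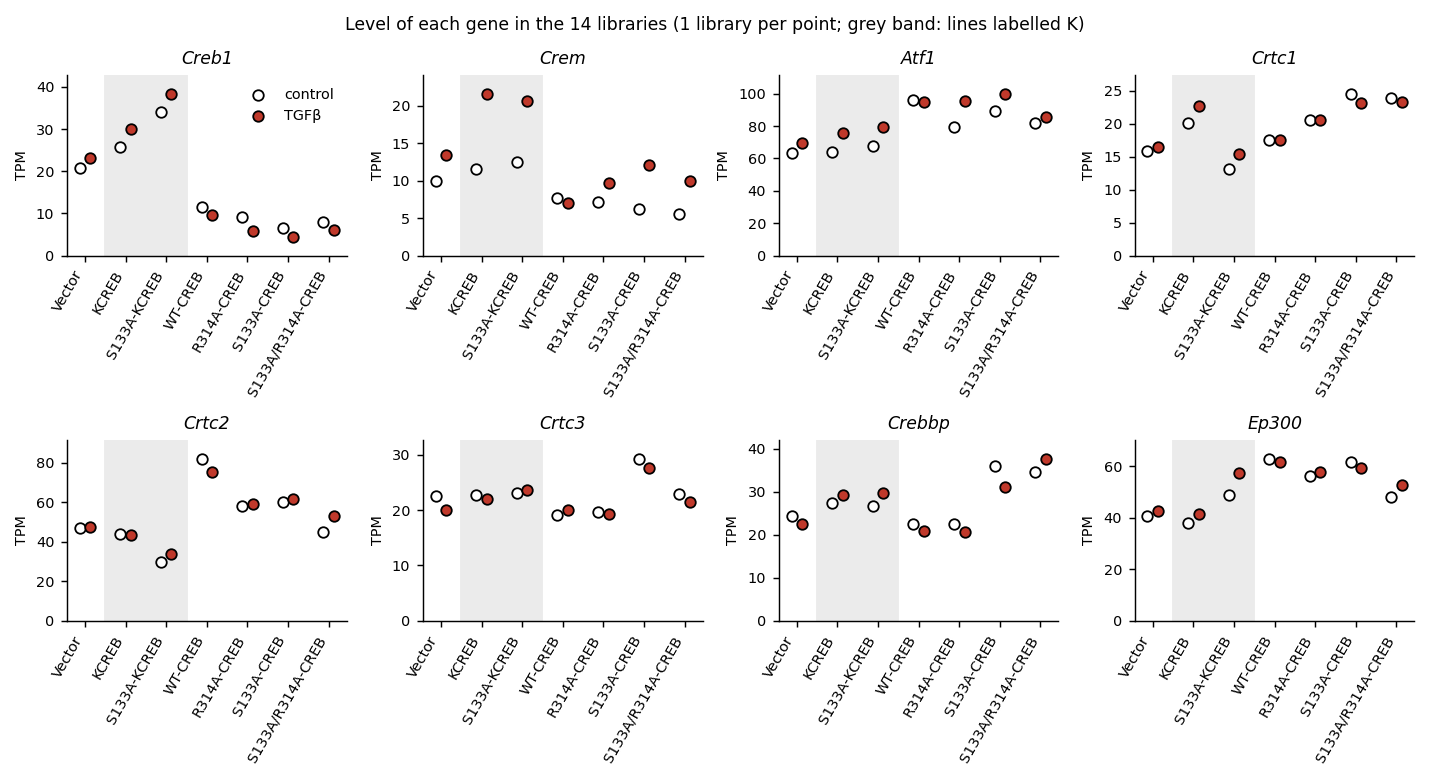
TPM of each of the 8 genes (vertical axes, each from 0) in every library, by line (horizontal axis); open points are control and filled points TGFβ libraries, and the grey band marks the 2 lines labelled K. The Creb1 points of the K lines lie at 25.8 to 38.3 TPM, above Vector, and those of the other 4 CREB lines at 4.43 to 11.6 TPM, below it.

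Creb1, the gene of the protein named in the constructs (chromosome 1, 64571963 to 64643707 on GRCm39, plus strand), varied most between lines. In control cells it was at 20.8 TPM in the line labelled Vector, 11.6 in WT-CREB, 9.04 in R314A-CREB, 6.59 in S133A-CREB and 7.92 in S133A/R314A-CREB. The lines labelled KCREB and S133A-KCREB had 25.8 and 34.04 TPM. With TGFβ the values were 23.1 TPM in Vector, 9.68 in WT-CREB, 5.89 in R314A-CREB, 4.43 in S133A-CREB, 6.01 in S133A/R314A-CREB, 30.1 in KCREB and 38.3 in S133A-KCREB. The 4 CREB lines without K were thus at 0.555-fold of Vector or less in control cells and at 0.419-fold or less with TGFβ, against the growth protocol's description of these cells as overexpressing their constructs. The labels give neither the species of the constructs nor their extent, and reads of a construct and of the endogenous gene cannot be told apart in these values. In these bulk cultures, fewer cells expressing a gene and less RNA per cell cannot be told apart either.

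The spread of Creb1 between lines was large among genes that average 5 TPM or more, with no upper limit on level. The SD of its line means was 1.01 on the log2(TPM + 1) scale, at percentile 97.0 of the 10530 genes that average 5 TPM or more. Crem stood at percentile 86.6 and Crtc2 at 83.4, while Atf1 stood at 40.6. The genes beside Creb1 did not share its range: Klf7, 410.5 kb before it, spanned 15.5 to 26.9 TPM, and Mettl21a, 1.93 kb after it on the opposite strand, spanned 15.9 to 32.2 TPM, against the 8.65-fold range of Creb1. Whether the libraries keep the strand is not given in the sources used here. By the correlation of log2(TPM + 1) over the 14 libraries, the genes most like Creb1 among 10015 candidates were Calm2 (r = 0.94), which encodes a calmodulin, Inpp5f (0.91) and Nsa2 (0.90), and those most opposite were Vps11 (r = -0.93), Tbc1d22a (-0.93) and Fbxo42 (-0.92). These r describe 14 libraries that come in pairs from 7 lines, and the highest of many candidates is high by choice.

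Crem (chromosome 18, 3263181 to 3337688, minus strand) was the gene that moved most with TGFβ. From control to TGFβ it went from 9.92 to 13.4 TPM in Vector, 11.5 to 21.6 in KCREB, 12.5 to 20.6 in S133A-KCREB, 7.10 to 9.64 in R314A-CREB, 6.24 to 12.1 in S133A-CREB and 5.54 to 9.95 in S133A/R314A-CREB. In WT-CREB alone it went the other way, from 7.73 to 6.95 TPM. The ranges of all control and all TGFβ libraries overlapped. Within lines Crem rose by 0.54 ± 0.12 on the log2(TPM + 1) scale (SE, 7 lines; 95% interval 0.28 to 0.81; limma adjusted p over all genes = 0.00521). An exact two-sided sign-flip permutation test over the 7 differences gave p = 0.03125, unadjusted, 1 of 8 such tests and with 0.015625 the smallest p it allows. On scaled coverage in place of TPM, an alternative added after the data were seen, the rise was 0.28 (limma adjusted p = 0.0145), with the same 1 added before the logarithm to a mean Crem value of only 0.94, which shrinks the difference.

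Atf1 (chromosome 15, 100125740 to 100159129, plus strand) rose less. It went from 63.2 to 69.7 TPM in Vector, 63.7 to 75.8 in KCREB, 67.6 to 79.2 in S133A-KCREB, 79.6 to 95.2 in R314A-CREB, 89.3 to 99.8 in S133A-CREB and 81.7 to 85.5 in S133A/R314A-CREB. It was at 96.3 and 94.8 TPM in WT-CREB, the same line in which Crem was lower with TGFβ. The difference was 0.15 ± 0.04 (log2, SE, 7 lines; 95% interval 0.05 to 0.25; limma adjusted p = 0.0203, exact sign-flip p = 0.03125). It did not pass without KCREB (adjusted p = 0.0505), R314A-CREB (0.0540) or S133A-KCREB (0.0549).

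The difference in Creb1 had no common direction. Creb1 was higher with TGFβ in Vector (0.14 on the log2 scale), KCREB (0.21) and S133A-KCREB (0.17), and lower in WT-CREB (-0.23), R314A-CREB (-0.54), S133A-CREB (-0.48) and S133A/R314A-CREB (-0.35). The mean over lines was -0.15 ± 0.11 (SE; 95% interval -0.40 to 0.09; limma adjusted p = 0.265). The 3 lines in which it was higher are those with the highest Creb1 in control cells. Mettl21a, its neighbour, fell by 0.36 (limma adjusted p = 0.00274), lower with TGFβ also in Vector, at 25.04 and 21.2 TPM.

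**Figure D2:**
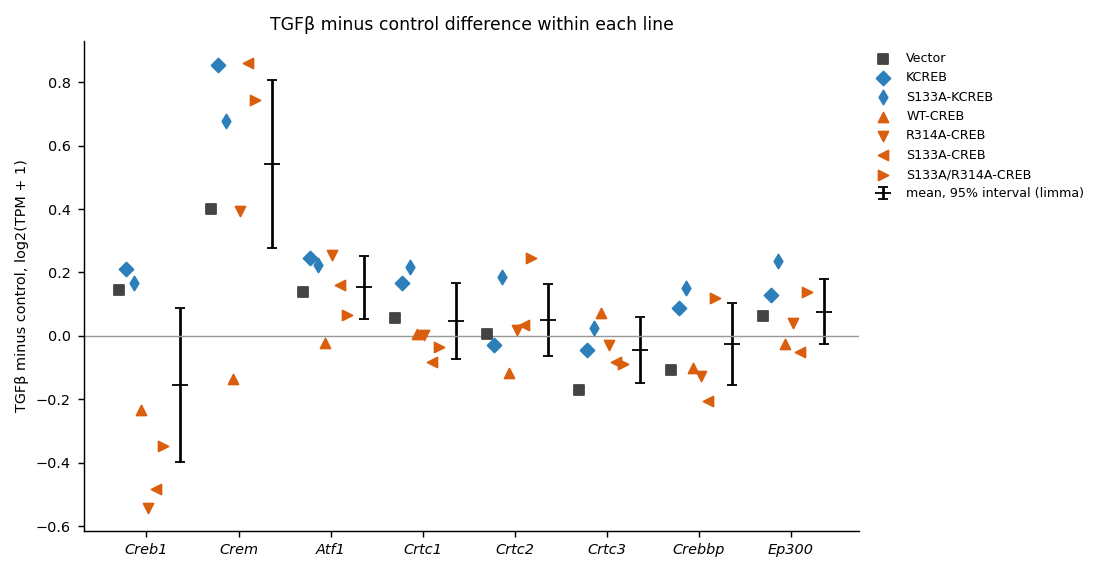
TGFβ minus control difference on the log2(TPM + 1) scale (vertical axis) for each gene (horizontal axis), 1 symbol per line, with the mean over lines and its 95% interval from limma. The intervals of Crem and Atf1 lie above 0 and the others span it, and Creb1 is above 0 in Vector and the K lines and below 0 in the other 4.

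None of the CRTC coactivators passed the test. Crtc2 (chromosome 3, 90161165 to 90171432), the CRTC known for its role in hepatic glucose production, ran from 29.7 to 81.8 TPM in control cells (median 47.1) and from 33.9 to 75.3 with TGFβ (median 53.2), a difference of 0.05 (95% interval -0.06 to 0.16; limma adjusted p = 0.449). Crtc1 (chromosome 8, 70835002 to 70892720), best known in neurons, ran from 13.1 to 24.5 TPM (median 20.1) and from 15.4 to 23.4 (median 20.6), a difference of 0.05 (-0.07 to 0.17; adjusted p = 0.493). Crtc3 (chromosome 7, 80236375 to 80339443) ran from 19.0 to 29.2 TPM (median 22.7) and from 19.2 to 27.5 (median 21.5), a difference of -0.04 (-0.15 to 0.06; adjusted p = 0.463). Crtc1 was higher with TGFβ in 5 of 7 lines, Crtc2 in 5 and Crtc3 in 2.

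The acetyltransferases did not pass either. Crebbp (chromosome 16, 3899198 to 4031864) ran from 22.5 to 36.1 TPM in control cells (median 26.7) and from 20.6 to 37.6 with TGFβ (median 29.2), a difference of -0.03 (95% interval -0.15 to 0.10; limma adjusted p = 0.741). Ep300 (chromosome 15, 81470329 to 81536278) ran from 38.0 to 62.8 TPM (median 48.8) and from 41.7 to 61.7 (median 57.6), a difference of 0.08 (-0.03 to 0.18; adjusted p = 0.197). The intervals of these 5 coactivator genes leave room for differences of up to 0.18 in size on the log2 scale.

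In all, 2 of the 8 genes passed for TGFβ, both higher, where 45.4% of all genes tested passed in either direction and 24.1% passed as higher. No gene of the 8 moved in one direction in all 7 lines, as 34.4% of all genes did. The median size of the difference was 0.06 for the 8 genes and 0.18 for all genes tested. The 2 of 8 were thus fewer than the background share in either direction, and near the share of higher genes.

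Summed over each family, the subfamily was at 102.5 ± 8.97 TPM in control cells and 116.0 ± 12.7 with TGFβ (SD, n = 7), the CRTC genes at 94.4 ± 17.9 and 95.3 ± 14.8, and CBP with p300 at 78.7 ± 11.5 and 80.9 ± 9.85. Within the subfamily Atf1 held the largest share, 75.6 ± 11.9% in control cells and 74.8 ± 13.3% with TGFβ. The share of Creb1 went from 16.0 ± 9.57% to 13.8 ± 10.1% and was lower with TGFβ in 7 of 7 lines, also in those where Creb1 itself was higher. The share of Crem went from 8.42 ± 2.44% to 11.4 ± 3.70% and was higher in 6 of 7. By TPM, Crem exceeded Creb1 in 3 of the 7 TGFβ libraries, with 9.64 against 5.89 TPM in R314A-CREB, 12.1 against 4.43 in S133A-CREB and 9.95 against 6.01 in S133A/R314A-CREB. By scaled coverage the order of the pair turned in all 3, with Crem at 0.836, 0.966 and 0.801 and Creb1 at 1.35, 0.998 and 1.35 in these libraries, and the shares of the family genes rest on TPM. The share of Crebbp in the sum of Crebbp and Ep300 went from 35.5 ± 6.02% to 33.9 ± 6.39%, lower in 7 of 7 lines. These shares are given as description, with no test.

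**Figure D3:**
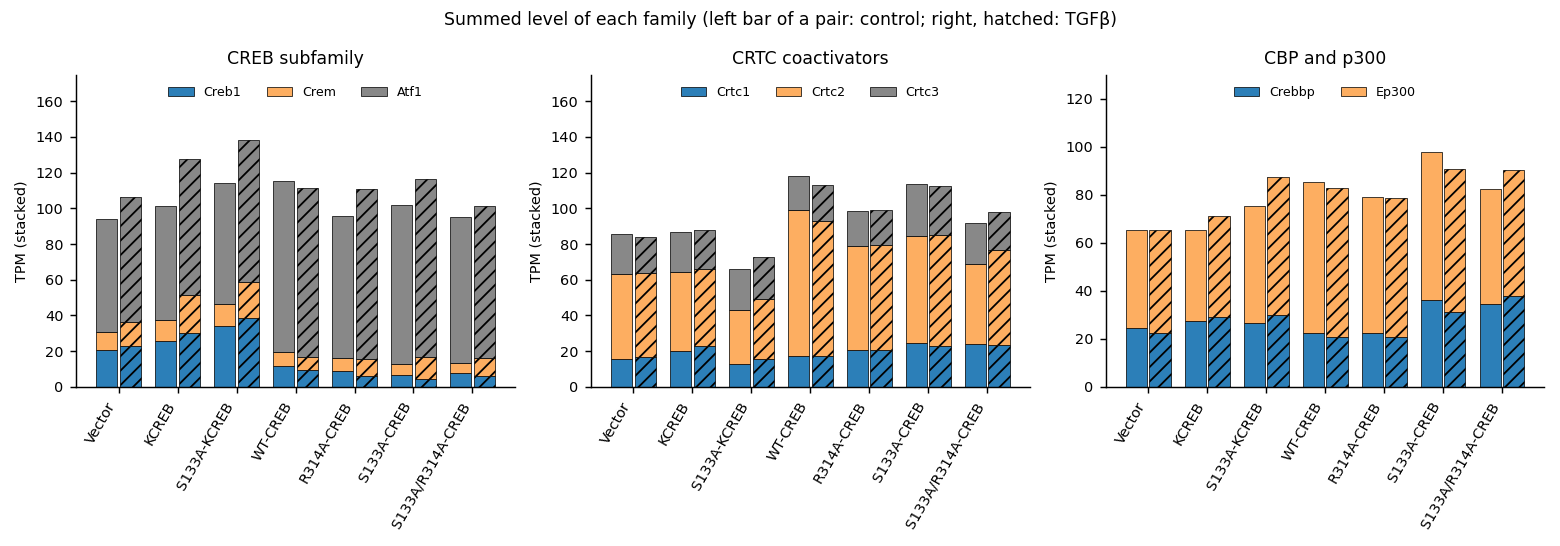
Stacked TPM (vertical axes from 0) of the CREB subfamily, the CRTC coactivators and CBP with p300 in each line (horizontal axes), left bars control and right, hatched bars TGFβ. Atf1 forms most of every subfamily bar, and the Creb1 segment is widest in the lines labelled K and in Vector.

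The lines labelled K were set apart from the other 4 CREB lines in 3 of the 8 genes, a comparison chosen after the values were seen. The 4 K libraries spanned 25.8 to 38.3 TPM of Creb1 and the 8 others 4.43 to 11.6 TPM. Crtc2 was at 29.7 to 44.1 TPM in the K libraries and 44.7 to 81.8 in the others, and Atf1 at 63.7 to 79.2 and 79.6 to 99.8, so these ranges nearly met. Of all genes tested, 2.63% did not overlap in this way. Vector lay between the groups for Creb1, within the range of the other lines for Crtc2 (47.1 and 47.4 TPM), and in or just under the K range for Atf1 (63.2 and 69.7 TPM). Crem overlapped, at 11.5 to 21.6 TPM in the K libraries and 5.54 to 12.1 in the others.

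K was fitted against the lines with neither K nor R314A (WT-CREB and S133A-CREB), over line means with the S133A state as a term. Creb1 differed by 1.92 (95% interval 1.05 to 2.80), Crem by 0.91 (0.32 to 1.495), Crtc2 by -0.88 (-1.29 to -0.47) and Atf1 by -0.41 (-0.79 to -0.03). None of these 4 passed over all genes (limma adjusted p = 0.275, 0.336, 0.283 and 0.466). No gene of the 12927 passed, 0%, and 1310 had an unadjusted p under 0.05. Against all 4 other CREB lines no gene passed either (0%; 845 at an unadjusted p under 0.05), and Creb1 differed by 1.97 (1.30 to 2.64; adjusted p = 0.657). With 200 genes changed in simulated data, the K fit (2 lines a side) recovered 19.5% at 4-fold and 0% at 2-fold.

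For S133A, none of the 8 genes and 0% of all genes passed in limma (753 of 12927 at an unadjusted p under 0.05). Creb1 differed by -0.19 (95% interval -0.90 to 0.53), Crem by 0.04 (-0.44 to 0.52) and Atf1 by 0.00 (-0.31 to 0.31) between the 3 lines with S133A and the 3 without. The direction was not stable for Creb1 and Crem: without WT-CREB or without S133A-CREB the difference was 0.14 for Creb1 and -0.05 for Crem. The S133A fit compares each S133A line with its counterpart. Leaving out either line removes the same pair, so these 2 omissions are 1 check. Crebbp differed by 0.44 (-0.08 to 0.95; adjusted p = 0.809) and Crtc2 by -0.36 (-0.69 to -0.02; adjusted p = 0.809). For R314A, the change that bears on CRTC binding, 0% of genes passed too (821 at an unadjusted p under 0.05), and the CRTC genes differed by 0.11 (Crtc1; -0.65 to 0.86), -0.36 (Crtc2; -0.77 to 0.05) and -0.17 (Crtc3; -0.71 to 0.37). The direction turned for Crtc1 without WT-CREB (-0.20) or S133A/R314A-CREB (-0.02) and for Crtc3 without S133A-CREB (0.02). The intervals for single genes are wide. With 200 genes changed in simulated data, the S133A fit recovered 0% at 1.5-fold, 0% at 2-fold and 62% at 4-fold, and R314A was not simulated. These rates describe the simulations and not the power of the real fits.

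The TGFβ difference itself was compared between lines. It did not pass for any gene with S133A (0%; 476 at an unadjusted p under 0.05 in limma), and in Crem it differed by 0.39 between lines with and without S133A (95% interval -0.23 to 1.01; adjusted p = 0.999). That difference was 0.09 without WT-CREB or without S133A-CREB, and 0.67 without KCREB or without S133A-KCREB. The 2 omissions of each pair are again 1 check. Creb1 was the only one of the 8 genes higher with TGFβ in both K lines and lower in the 4 other CREB lines, a pattern that 2.2% of all genes had in one direction or the other. The test of that difference gave 0.59 (0.25 to 0.93; adjusted p = 0.512), with 0% of genes passing and 1143 at an unadjusted p under 0.05.

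Some of the line differences moved with the chromosome on which the gene lies, measured as the median log2 difference from Vector of the other genes tested there. Atf1 and Ep300 share chromosome 15, whose median was above Vector by 0.20 in WT-CREB, 0.23 in R314A-CREB, 0.40 in S133A-CREB and 0.23 in S133A/R314A-CREB, while the K lines differed, with 0.16 in S133A-KCREB and -0.12 in KCREB. Crtc2 was lower than Vector by -0.56 in S133A-KCREB, where the median of chromosome 3 was -0.43, and higher by 0.72 in WT-CREB, where it was 0.22. In S133A-CREB and KCREB, Crtc2 was at 0.36 and -0.11, against medians of 0.09 and -0.05. In R314A-CREB and S133A/R314A-CREB it was at 0.31 and 0.04, against -0.003 and -0.03. Crebbp was higher by 0.60 in S133A/R314A-CREB and by 0.50 in S133A-CREB, where the medians of chromosome 16 were 0.41 and 0.25. Other values lay on the other side of 0 from their chromosome. Crtc1 did so in WT-CREB (0.11 against -0.18 for chromosome 8), R314A-CREB (0.33 against -0.10) and S133A-CREB (0.53 against -0.08). In KCREB, S133A-KCREB and S133A/R314A-CREB it lay on the same side. Atf1 in KCREB (0.07 against -0.12) and Crebbp in R314A-CREB (-0.11 against 0.04) were opposite too. So was Crtc3 in KCREB (0.07 against -0.04 for chromosome 7) and S133A/R314A-CREB (0.06 against -0.003). The median of chromosome 1 stayed between -0.04 and 0.08 while Creb1 ran from -1.84 to 0.69.

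After these medians were subtracted, the K libraries and the other CREB libraries did not overlap for Creb1 and Crem, and overlapped for the other 6 genes, Atf1 and Crtc2 among them. The Crem ranges nearly met, with a lowest K value of 0.245 and a highest other value of 0.175 (log2). For Creb1 these were 1.01 and -0.196. The same subtraction left 2.37% of 12894 genes without overlap. The K difference was 2.03 for Creb1 and 1.03 for Crem after subtraction, against 1.97 and 0.92 before, and -0.09 for Atf1 and -0.37 for Crtc2, against -0.33 and -0.69 before. The subtraction was chosen after the values were seen, and the part of the chromosomes in the line differences was not tested. The genes of most like pattern lay on the same chromosome for Crtc2 (Tdrkh, r = 0.97), Ep300 (Arhgap39, r = 0.96) and Crtc1 (Nr2f6, r = 0.89), and on another for Atf1 (P2ry14, r = 0.95), Crebbp (Numa1, r = 0.93) and Crem (Ptp4a1, r = 0.90), over the same 14 libraries and 10015 candidates.

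**Figure D4:**
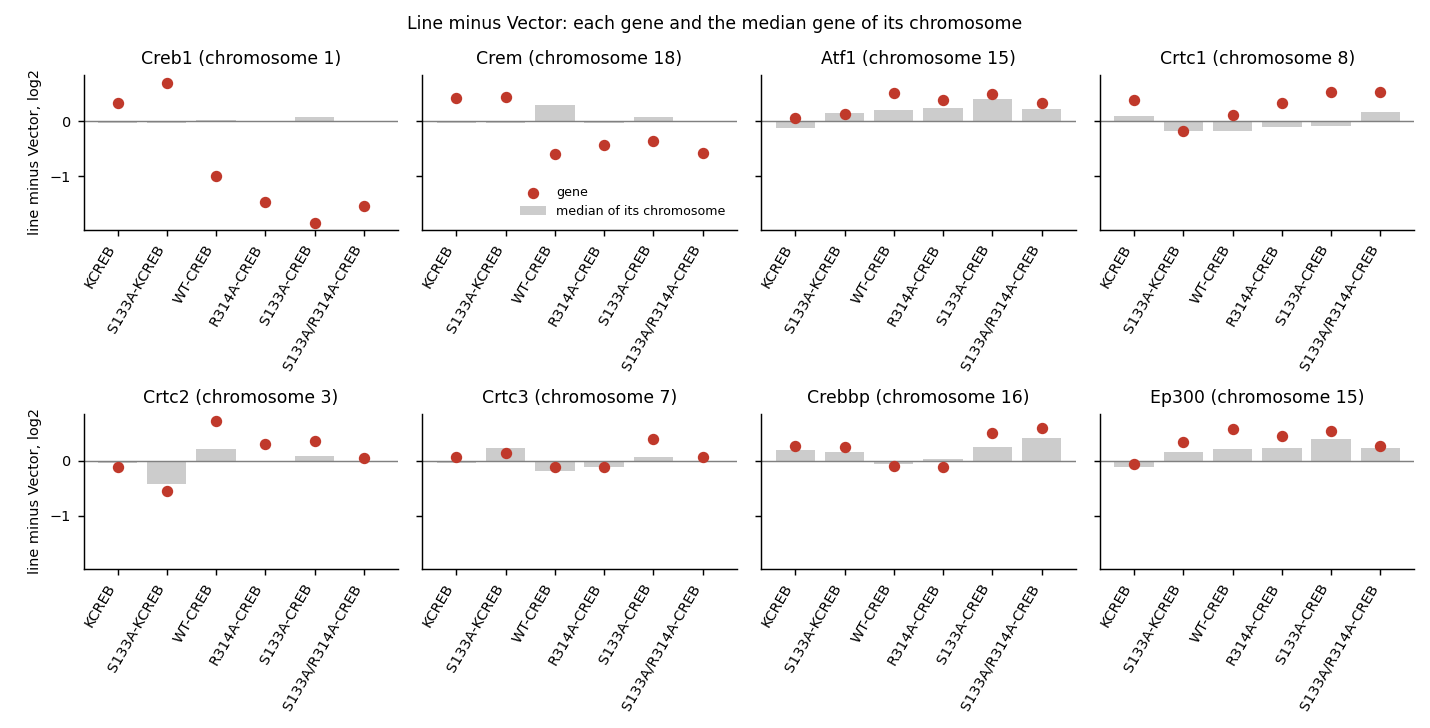
Log2 difference of each CREB line from Vector (vertical axes, mean of control and TGFβ on log2(TPM + 1)) for each gene (points) and for the median of its chromosome (grey bars), by line (horizontal axes). Creb1 and Crem depart from their chromosomes in both directions, while most points of Atf1, Crebbp and Ep300 lie on the side of their bars.

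The promoters were searched for the letters of the cAMP response element, the site that the subfamily binds. In the RefSeq promoter table on GRCm38.p6, which covers 6 of the 8 genes (Creb1, Atf1, Crtc1, Crtc3, Crebbp and Ep300) with windows of 300 bases, the full element TGACGTCA was in none of the 6, and in 1.79% of 32851 windows. The shorter core TGACG, searched on both strands and contained in the full one, was in 1 of the 6, Atf1, and in 20.8% of windows. The core lies 90 bases before the start of Atf1, on the plus strand. It is shown in capitals within a window of 35 bases at chr15:100227754-100227788.
Atf1 promoter: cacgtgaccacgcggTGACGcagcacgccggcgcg
A match is a description of the letters and not a binding site.

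Genes that act on the subfamily and its coactivators, and further lists, were read from the same TGFβ fit. Beside the counts of each list stands the share of all genes tested that passed, 45.4% in either direction and 24.1% as higher. The lists were not tested against that share. Of 14 tested genes of cAMP and PKA signalling, 3 rose and 4 fell, with a median of -0.02 on the log2 scale against 0.02 for all genes tested. Prkar2b, a regulatory subunit of protein kinase A, went from 76.9 ± 36.3 to 55.7 ± 22.2 TPM (SD, n = 7) and fell by 0.43, and Prkaca, a catalytic subunit, went from 131.7 ± 17.7 to 110.2 ± 11.9 and fell by 0.25. The phosphodiesterase gene Pde4b fell by 1.00, from 4.46 ± 3.86 to 1.25 ± 0.82 TPM, and the adenylyl cyclase gene Adcy7 rose by 0.41, from 50.7 ± 16.9 to 65.98 ± 14.7 TPM. The limma adjusted p of these 4 were 0.000210, 0.00514, 0.00390 and 0.00624.

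Of 15 tested kinases and phosphatases of CREB, 4 rose and 4 fell (median 0.05). The CaM kinase gene Camk2d fell by 0.95, from 47.1 ± 10.4 to 24.5 ± 7.62 TPM (limma adjusted p = 0.000271). Mapkapk2, a kinase of the p38 pathway, rose by 0.37 (103.8 ± 13.8 to 133.8 ± 16.0 TPM), and the catalytic subunits of phosphatase 2A, Ppp2ca and Ppp2cb, rose by 0.19 and 0.36 (adjusted p = 0.000384, 0.00641 and 0.000536). Of 18 tested genes listed as regulators of CRTC proteins, 3 rose and 4 fell (median 0.04). The salt-inducible kinase genes Sik2 and Sik3, whose products phosphorylate CRTC proteins and hold them in the cytoplasm, fell by 0.24 and 0.28, from 40.0 ± 4.65 to 33.9 ± 4.96 TPM and from 35.8 ± 6.36 to 29.4 ± 5.52 TPM. Ppp3cc, a calcineurin subunit, and Ywhaq, a 14-3-3 protein, fell by 0.32 and 0.19 (adjusted p of the 4 genes 0.00255, 0.00153, 0.00389 and 0.00753). The 3 that rose were Sfn, also a 14-3-3 protein (0.34, from 1.33 to 1.99 TPM), Rcan1 (0.28) and Cop1 (0.21). The calcineurin genes Ppp3ca (0.05) and Ppp3cb (0.14), more abundant than Ppp3cc, did not pass, nor did Ywhab, Ywhae, Ywhag, Ywhah and Ywhaz. These further genes were named after their values were seen. Sik1, itself a cAMP response gene, was at 12.2 and 11.1 TPM on average (-0.09, adjusted p = 0.374).

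Of 18 other bZIP genes, of the ATF and CREB families or close to them like Nfil3, 6 rose and 4 fell (median 0.13), and 3 rose by more than Crem. Nfil3 rose by 1.29, from 23.3 ± 4.29 to 58.4 ± 11.04 TPM, Atf3, a stress-induced factor, rose by 1.22, from 5.17 ± 1.58 to 14.4 ± 6.92 TPM, and Creb3l2, which is released from the endoplasmic reticulum membrane, rose by 0.97, from 30.5 ± 7.17 to 61.7 ± 18.5 TPM. Atf4, the factor of the integrated stress response, rose by 0.39 from 614.2 ± 83.1 TPM and Atf6b fell by 0.33 from 102.6 ± 24.9 TPM. The limma adjusted p of these 5 were 7.36e-05, 0.00166, 0.000325, 0.000628 and 0.000725, and Atf3 was named after its values were seen.

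Of 13 tested genes of other acetyltransferases and coactivators, 4 rose and 4 fell (median 0.09). Kat2b, which encodes PCAF, fell by 0.65, from 72.5 ± 13.97 to 45.4 ± 6.28 TPM, and Kat6b fell by 0.53, from 17.8 ± 4.15 to 11.8 ± 1.81 TPM. Kat2a, which encodes GCN5, a close relative of PCAF, rose by 0.21 (61.3 ± 4.76 to 71.0 ± 4.69 TPM) and Med15, a Mediator subunit, rose by 0.26 (limma adjusted p of the 4 genes 0.000199, 0.000938, 0.00337 and 0.00632). Of 9 tested cAMP response genes, 1 rose and 3 fell (median -0.11). Nr4a1 fell by 0.45, from 20.3 ± 5.12 to 14.4 ± 2.45 TPM, and Fos fell by 0.46, from 5.27 ± 2.57 to 3.47 ± 1.58 TPM, and the third was Pde4b. Dusp1 rose by 0.23, in 6 of 7 lines (limma adjusted p = 0.0487, against 0.00369 for Nr4a1 and 0.00376 for Fos). The rest did not pass: Nr4a2 (0.10), Nr4a3 (-0.11), Sik1 (-0.09), Per1 (-0.29) and Pde4d (-0.005). Beside Crem, which is also a cAMP response gene, Dusp1 had the same direction in the mean over lines. Nr4a1, Fos and Pde4b had the opposite one.

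**Figure D5:**
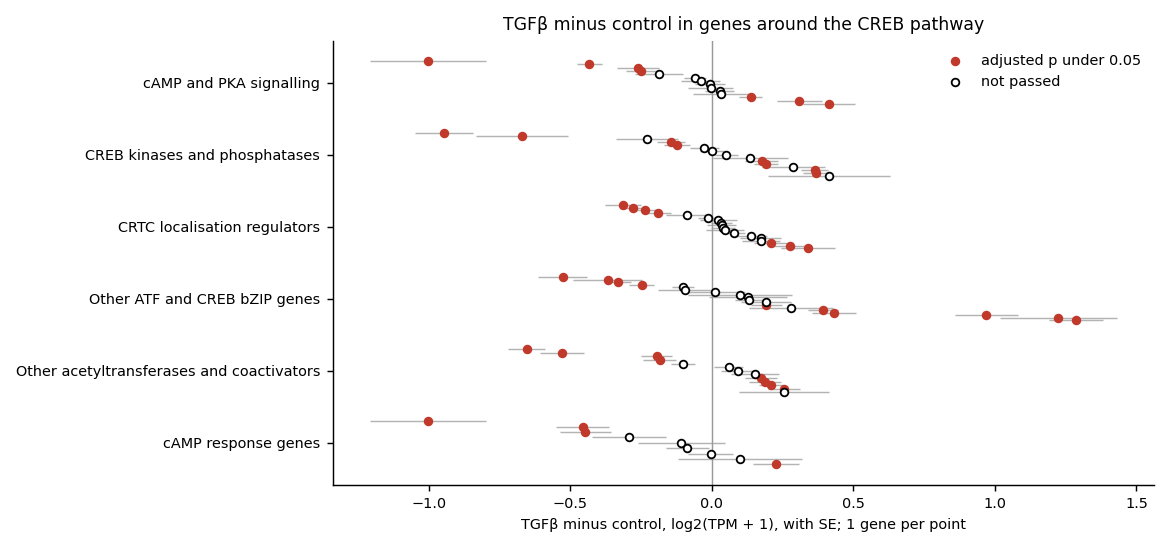
TGFβ minus control difference on the log2(TPM + 1) scale (horizontal axis, bars are SE) of each tested gene in the 6 lists (vertical axis); filled points have a limma adjusted p under 0.05. Each list holds genes that rose and genes that fell.

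Depth, judged from the coverage that 1 FPKM corresponds to, was 5.05 to 8.96 in control and 5.74 to 10.1 in TGFβ libraries, and the tables hold no read counts. Of 11 lens epithelial markers, 7 had a mean of at least 1 TPM. Pax6 spanned 54.4 to 327.7 TPM and Cryab 243.8 to 1674 TPM, while Foxe3, Pitx3, Crybb2 and Cdh1 averaged below 1 TPM, with Crybb2 at 0 in 14 of 14 libraries. Their sum was 716.3 to 2474 TPM in control and 591.3 to 1013 TPM in TGFβ libraries, and its part in the results was not tested. Of 5 macrophage, 5 endothelial and 5 muscle markers, 2, 1 and 1 averaged at least 1 TPM. These were Cd68 (1.42 to 10.1 TPM), Csf1r (0.789 to 3.92), Esam (0.664 to 3.27) and Des (4.06 to 28.4). Adgre1, Tyrobp, Myod1 and Myog were at 0 in all libraries.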

How the data were processed

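RNA-seq of 14 cultures (7 lines, control and TGFβ) was analysed from the deposited gene tables. Sample titles give line and treatment. The K lines appear in titles but not in the growth protocol. The submitters' processing notes name GRCm39, STAR 2.7.6a and StringTie 2.0.4, without roles. Annotation release and strandedness: not given in the sources used here. Per the file headers, each gene has TPM, FPKM and an average coverage per base, all 3 as the authors deposited them. Rows sharing a gene identifier were summed. Without read counts no count model or counting interval was used.

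TPM was taken as log2(TPM + 1), a scale that understates the change of low genes, and the 12927 genes averaging 1 TPM or more were fitted. The TGFβ effect was fitted with limma 3.58.1 (R 4.3.3, intensity trend) with the line as a block. A line label pairs its libraries, and their deviations correlated with r of 0.614 to 0.845, against 0.275 or less between lines. For S133A, K and R314A the fit used the line means of the 6 CREB lines, and for interactions their TGFβ minus control differences. Vector has 1 library per treatment and gives values only. Adjusted p-values are Benjamini-Hochberg over all genes fitted, two-sided, threshold 0.05. For TGFβ and the interactions, p-values measure the spread over lines of the TGFβ minus control differences. For S133A, K and R314A they measure the spread of line means left after the terms fitted. An exact test of the family shares was planned and is not reported, since the genes were chosen by name. No 2 libraries held identical values (0 pairs).

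The 8 genes, the 6 lists and the markers were chosen with earlier results of these data known. From each list up to 4 genes with the smallest TGFβ p were named, and for each of the 8 genes the highest correlation (for Creb1 the 3 highest and 3 lowest) among genes averaging 5 TPM or more. The result of that rule for Crtc3 is not reported here. Tested on simulated data of 12927 genes, recovery at 1.5-, 2- and 4-fold was 75.5%, 95.5% and 100% for TGFβ and 0%, 0% and 62% for S133A. Each simulation changed 200 genes, against 5872 that passed for TGFβ in the data, so its adjustment was stricter than that of the TGFβ fit. The simulated lines varied by the spread of the line means, with residual spread added again. The rates describe the simulations and not the power of the real fits. Sequences come from GENCODE M21 and RefSeq, and no coordinate was converted between builds.

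The fits were repeated with other pseudocounts (0.1, 5), without the filter or with one at 5 TPM, with quantile or median-of-ratios scaling, on FPKM, with no trend or no line block, without each line, and on control or TGFβ libraries alone. Coverage scaled by depth, TPM without mitochondrially encoded genes, K against the other CREB lines, its interaction with TGFβ, and subtraction of chromosome medians were added after seeing the data.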

Additional observations from a re-analysis of the deposited data

Results flagged for a closer look

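Among the 7 control libraries, Crtc3 was at 29.2 TPM in S133A-CREB, with a gap to the nearest library of 0.595 of the range, over Dixon's 95% critical value. The 8 genes gave 24 such groups of 7 (control, TGFβ and their difference), of which 1 was picked out, and chance picks out about 1 in 20. In the TGFβ library of the same line Crtc3 was at 27.5 TPM, also the highest of its group.

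The TGFβ minus control difference of Creb1 averaged 0.19 (log2) in the 2 lines labelled K and -0.40 in the other 4 CREB lines, above 0 in both K lines and below 0 in all of the other 4. The limma test of that difference did not pass over all genes (adjusted p = 0.512), and Vector had 0.14.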

How the results depend on the processing

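The line label pairs the libraries, so the line was the block. Without the replicate block, Crem was at 0.54 (limma adjusted p = 0.175) and Atf1 at 0.15 (adjusted p = 0.437), 0 of the 8 genes passed, and 1164 genes passed in place of 5872. Leaving out 1 line at a time, Atf1 was between 0.14 and 0.18, and 1 to 2 of the 8 genes passed; Crem passed each time (0.49 to 0.65). For K, where no gene passed, 16 genes passed without WT-CREB and 19 without S133A-CREB (0 to 19 over the lines left out), and for R314A 21 passed without S133A-CREB (0 to 21); the cause was not tested. The other 421 values of main comparisons kept their direction and their side of the threshold, as did 693 of single genes in the line comparisons. In 77 cases the sign turned, all of genes that passed in neither fit (adjusted p of 0.847 or more after the turn). Some of these count 1 check 2 times, since leaving out either line of an S133A pair gives the same S133A difference and interaction. For TGFβ this was Crebbp, at 0.0016 on coverage and -0.055 to 0.0041 without single lines. Without single lines the S133A difference ran from -0.46 to 0.14 for Creb1, -0.054 to 0.13 for Crem, -0.037 to 0.029 for Atf1, -0.18 to 0.31 for Crtc1 and -0.11 to 0.18 for Ep300. The K difference ran from -0.65 to 0.22 for Crtc1, -0.24 to 0.15 for Crtc3 and -0.27 to 0.40 for Crebbp, and against all other CREB lines from -0.70 to 0.16, -0.10 to 0.19 and -0.29 to 0.37. The R314A difference ran from -0.59 to 0.41 for Creb1, -0.17 to 0.12 for Crem, -0.20 to 0.41 for Crtc1, -0.37 to 0.023 for Crtc3 and -0.16 to 0.25 for Crebbp. The S133A by TGFβ interaction ran from -0.15 to 0.075 for Creb1, -0.11 to 0.080 for Atf1, -0.062 to 0.0071 for Crtc1, -0.11 to 0.0049 for Crtc3 and -0.021 to 0.15 for Crebbp, and the K by TGFβ interaction from -0.12 to 0.72 for Crem, -0.013 to 0.076 for Crtc2 and -0.065 to 0.11 for Crtc3. With quantile normalization the turned values were -0.0077 (Crem) and -0.0011 (Crtc1) for S133A, 0.018 (Crtc3) for K, 0.016 (Creb1) and 0.062 (Crem) for R314A and -0.014 (Crtc3) for K by TGFβ. With median-of-ratios scaling they were 0.0011 (Crtc3) for K, 0.0093 (Atf1) for S133A by TGFβ, and -0.015 (Crtc2) and -0.025 (Crtc3) for K by TGFβ. On FPKM they were -0.0090 (Crtc1) for S133A, and 0.011 (Creb1), 0.024 (Atf1) and 0.0044 (Crtc1) for S133A by TGFβ, and with a pseudocount of 0.1 3.9e-05 (Atf1) for S133A. On control libraries alone they were -0.16 (Crem) and 0.0052 (Atf1) for S133A, -0.074 (Crebbp) for K, -0.060 (Crebbp) for K against all other CREB lines and -0.027 (Crebbp) for R314A, and on TGFβ libraries alone 0.078 (Crem) for R314A. After subtraction of chromosome medians they were -0.011 (Crtc1) and -0.091 (Ep300) for S133A, -0.029 (Crebbp) for K, 0.17 (Crem), -0.052 (Crtc1) and -0.10 (Crebbp) for R314A, and -0.12 (Crtc3) for K against all other CREB lines. Median-of-ratios scaling gave 2832 genes higher and 2977 lower with TGFβ, and TPM without mitochondrially encoded genes 2868 and 2945, against 3110 and 2762. Depth in reads is unknown, which limits what can be said of Crem and Crtc1, the lowest of the 8 genes by coverage.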
